A study of Homo sapiens with 2 samples.

Results

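The endothelial barrier miRNAs chosen by the study are 4 exosomal miRNAs that the study took forward to work on endothelial permeability, namely hsa-miR-638, hsa-miR-663a, hsa-miR-3648 and hsa-miR-4258. The prefix for the human forms is dropped from here on. They were found by their names in the scanner output, where each had 1 spot per array, and they are 4 of the 2565 miRNA probes of the array. Because the study chose them on these arrays, their differences between the arrays are descriptions, with no test. The arrays profiled exosomes, small vesicles shed by cells. They came from 2 cultures of the liver cancer line HuH-7, derived from a human hepatocellular carcinoma. One carries the label HuH-7-P and the other HuH-7-M, with letters that the labels do not spell out, and the series title speaks of cell lines with high metastasis within the liver. Both cultures were kept with 10% fetal bovine serum and moved to advanced DMEM, and vesicles were pelleted at 110000 g for 70 min at 4 °C. The vesicle RNA was labelled with Cy5 for a 1-colour array, although the extraction text of the labels speaks of cells. There was 1 array per culture, so no difference has a replicate, and any difference of day, labelling or scan cannot be told apart from the cultures.

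miRNAs are short RNAs that guide Argonaute proteins to messenger RNAs, mainly by pairing of the seed, bases 2 to 8, and lower the output of those messages. Vesicles can carry miRNAs from tumour cells to the endothelium, the cell layer that lines vessels. Its barrier rests on junction proteins such as VE-cadherin and ZO-1, and loosening of that layer helps tumour cells pass through the vessel wall. A further route to short RNAs of this kind is breakdown of longer structured RNAs, ribosomal RNA among them.

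The mature sequences are shown because base composition is the feature the 4 miRNAs share most plainly, and it returns in the comparison of the arrays. They are RefSeq sequences on GRCh38.p14, written 5′ to 3′, with the seed in capitals.
miR-638: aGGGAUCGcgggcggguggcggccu
miR-663a: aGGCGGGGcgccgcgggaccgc
miR-3648: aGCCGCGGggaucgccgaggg
miR-4258: cCCCGCCAccgccuugg
No pair of the 4 shares a seed. miR-638 lies at chr19:10718419-10718443 on the plus strand, within the span of DNM2, the gene of the membrane fission protein dynamin 2. miR-663a lies at chr20:26208243-26208264 on the minus strand, within the span of its long noncoding host RNA MIR663AHG. miR-3648 is listed at chr21:8987026-8987046 on the plus strand, from the gene MIR3648-2. A second gene, MIR3648-1, lies within the span of RNA45SN2, a precursor of ribosomal RNA. miR-4258 lies at chr1:154975703-154975719 on the plus strand, within the span of CKS1B, a gene of the cell cycle. Whether each sits in an exon or an intron was not looked up.

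GC content was 80% in miR-638, 90.9% in miR-663a, 81.0% in miR-3648 and 82.4% in miR-4258. The median over the 2253 probes with a RefSeq mature sequence was 52.2%, and 69 of them (3.06%) reached 80%. miR-638, miR-663a and miR-3648 are rich in G, with 14 of 25, 12 of 22 and 11 of 21 bases. miR-4258 is rich in C instead, with 10 of 17 bases, and 14 probes hold a higher share of C. miR-638 is long, with 10 probes longer, and miR-4258 is short, with 7 probes shorter.

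Signal below is the median intensity of the spot minus the mean of the 320 BLANK spots of its array. A probe was taken as above background where its spot median passed the BLANK limit, which is their mean plus 2 SD after the top and bottom 5% of BLANK spots were left out, and as measured where this held on both arrays. Of all miRNA probes 1593 were measured, all 4 members among them. The members also passed a stricter limit drawn from the No Probe control spots. The signal of miR-638 was 2956 (HuH-7-P) and 5822 (HuH-7-M). miR-663a, which has been studied in endothelial cells under disturbed flow, had 1159 and 2727. miR-3648 had 1714 and 3599. All 3 were bright spots, with ranks of 25, 65 and 47 among 2565 spots on HuH-7-P, and of 19, 45 and 34 on HuH-7-M. A rank describes how bright a spot is, not how abundant its miRNA is. miR-4258 was dimmer, with 152 and 366, at ranks of 352 and 184. Its spot medians were 3.39 and 6.94 times the BLANK limits of the 2 arrays, so it too stood well clear of background.

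**Figure D1:**
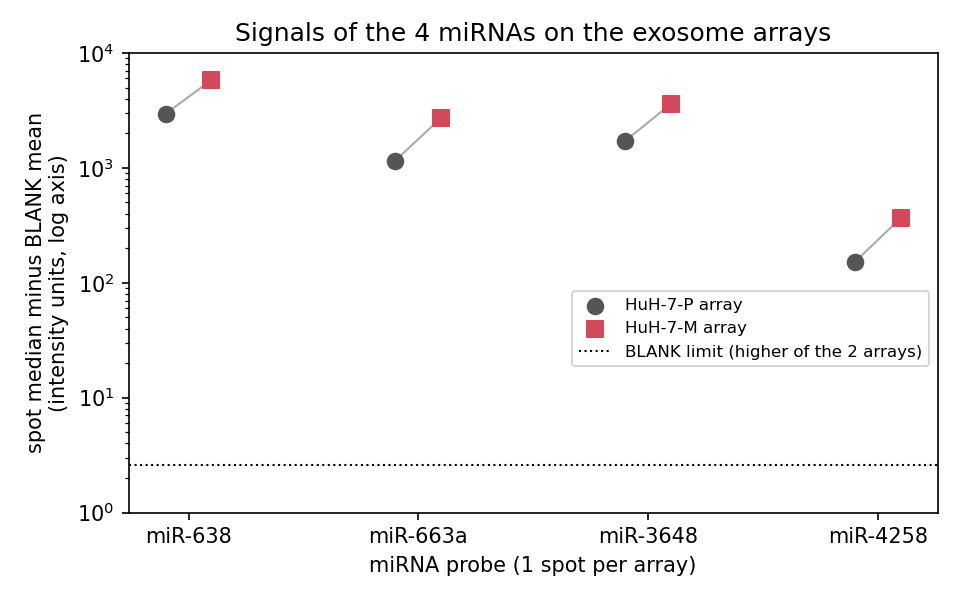
Spot median minus BLANK mean of the 4 miRNAs (log axis, intensity units) for HuH-7-P (circles) and HuH-7-M (squares), 1 spot per array, with the BLANK limit dotted. Each miRNA was brighter on HuH-7-M, from 2956 to 5822 for miR-638 and from 152 to 366 for miR-4258.

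All 4 miRNAs gave the brighter spot with HuH-7-M exosomes. With no scaling between the arrays the signal on HuH-7-M was 1.97 times that on HuH-7-P for miR-638, 2.10 times for miR-3648, 2.35 times for miR-663a and 2.41 times for miR-4258. The corresponding log2 ratios were 0.98, 1.07, 1.23 and 1.27, against a median of 0.0035 over the measured miRNAs. Replicate spots of a control probe within an array had a pooled log2 SD of 0.14 (17 sets of spots), so the difference between a pair of single spots carries a technical SD of 0.20. That spread leaves out any between cultures and arrays. The 4 ratios differ among themselves by 0.29 from lowest to highest. On this scale 3 of the 4 were at least 2-fold higher on HuH-7-M, as were 3.33% of the measured miRNAs, and miR-638 was just under that size. Since the study chose the members by this contrast, nothing is read from that count.

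The size of the difference depended on how the arrays were brought to a common scale. The main setting corrected background with normexp fitted on the BLANK spots, added an offset of 50 and made the arrays' distributions equal by quantile normalization. There the normalized log2 level of miR-638 was 11.88 (HuH-7-P) and 12.15 (HuH-7-M), a difference of 0.28 or 1.21-fold. miR-3648 stood at 11.08 and 11.51, a difference of 0.43. The levels of miR-663a were 10.43 and 11.13, a difference of 0.69. miR-4258 had 7.63 and 8.71, a difference of 1.08 or 2.11-fold. Only miR-4258 of the 4 was then at least 2-fold higher, a size that 0.439% of the 1593 measured miRNAs reached, while 1.69% were at least 2-fold lower. The members' median was 0.56, against 0.01 over the measured miRNAs.

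The authors' deposited values carry no offset and were scaled to the median of the detected probes. In these values all 4 were at least 2-fold higher, as were 3.91% of the 1585 measured miRNAs that a deposited row could be matched to. miR-638 stood at 2427 in HuH-7-P exosomes and 4891 in those of HuH-7-M, a log2 difference of 1.01. miR-663a was 951 and 2291 (1.27), miR-3648 was 1407 and 3023 (1.10), and miR-4258 was 125 and 307 (1.30). With the normexp background and its offset but no scaling, 3 of the 4 passed 2-fold (1.19% of the measured miRNAs). So did 3 of the 4 when the medians of the measured miRNAs were made equal (1.26%), and 4 of the 4 with scaling to the 75th percentile of all probes (1.44%). After cyclic loess, which evens out differences along brightness, the differences were 0.48 for miR-638, 0.67 for miR-3648, 0.88 for miR-663a and 1.05 for miR-4258, which alone passed 2-fold (0.565% of the measured miRNAs). Scaled to the Spike Control spots, which brought the median of the measured miRNAs to -0.58, the members lay between 0.38 and 0.62, and 0 of the 4 passed 2-fold (0.126% of the measured miRNAs did). Relative to that median, the members lay further from the other miRNAs than their distance from 0 shows. That distance is the same as with the normexp background and no scaling, and the study's choice of the members bears on it. Among all 2-fold calls the share that was higher on HuH-7-M was 20.6% in the main setting, 42.2% with no scaling, 45.5% with equal medians of the measured miRNAs, 51.1% with the 75th percentile and 2.67% with the Spike Control spots.

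**Figure D2:**
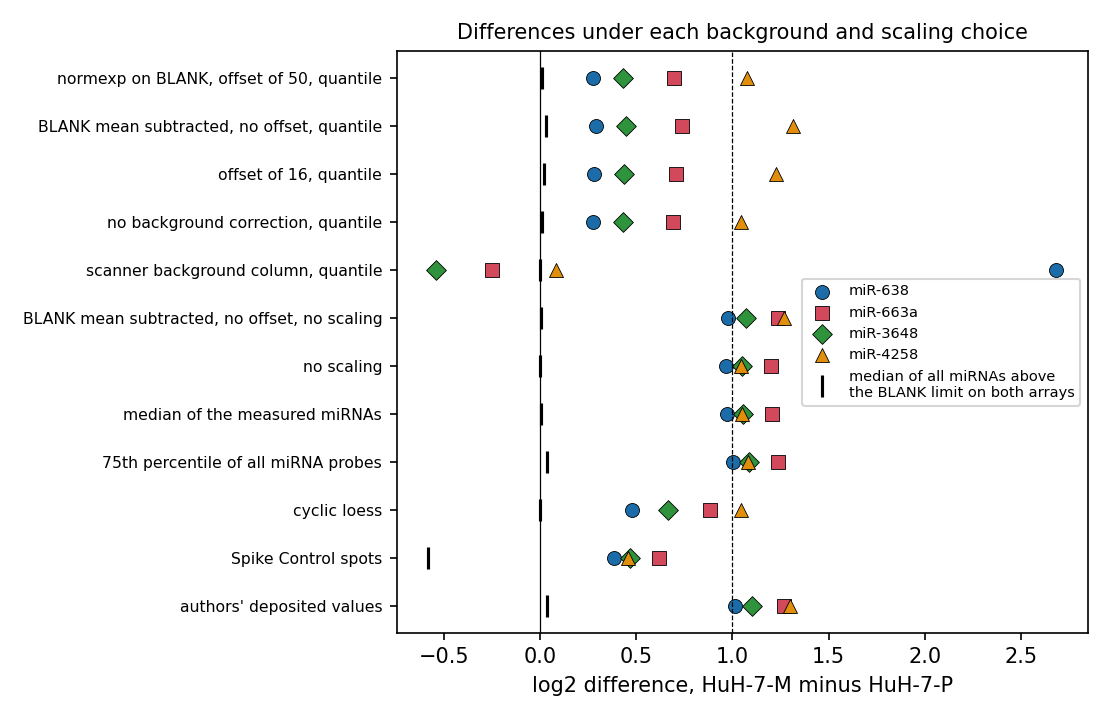
Difference on the log2 scale (HuH-7-M minus HuH-7-P) of the 4 miRNAs under the main setting (top row) and each alternative, with the median of all measured miRNAs as a black tick and 2-fold as a dashed line. Quantile normalization and cyclic loess spread the 4 apart, scaling by a single factor keeps them within 0.29 of each other, and the scanner background column places miR-638 at 2.68 with the other 3 between -0.54 and 0.084.

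The brightness of the spots moved with the ratio. When the measured miRNAs were split into 10 deciles by mean log2 signal, the median log2 ratio without scaling lay between -0.15 and 0.05 in the lower 9 deciles and was 0.45 (quartiles -0.03 and 0.75) in the brightest. There 115 of 160 probes were brighter on HuH-7-M. miR-638, miR-663a and miR-3648 belong to that decile. miR-638 lay 0.53 above its median with 16 of the 160 higher, miR-3648 lay 0.62 above with 11 higher, and miR-663a lay 0.79 above with 2 higher. miR-4258 belongs to the next decile, whose median was 0.02, and lay 1.25 above it with 3 of 159 higher. After quantile normalization the medians of these deciles were 0.05 in both. miR-638 then lay 0.23 above with 47 of 160 higher, miR-3648 0.39 above with 30 higher and miR-663a 0.65 above with 11 higher. miR-4258 still had 3 of 159 higher. The study chose the members by this contrast, so nothing is read from their places within the deciles. Over the 16 Spike Control spots the mean log2 ratio was 0.58, so they too were brighter on HuH-7-M. The part of array brightness in the members' differences was not tested.

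**Figure D3:**
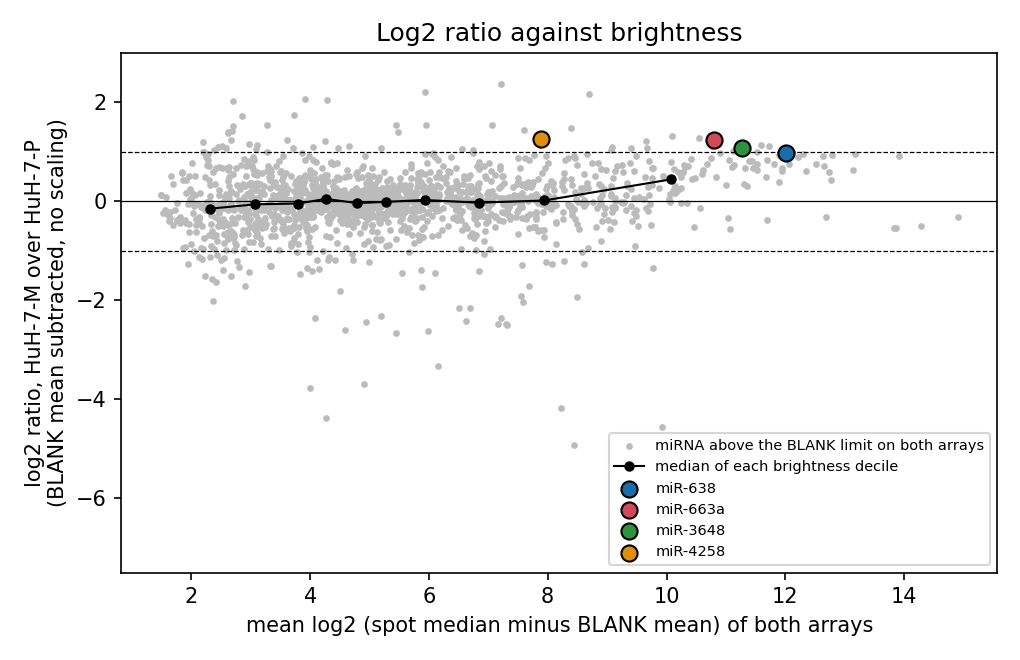
Log2 ratio of HuH-7-M over HuH-7-P, BLANK mean subtracted and no scaling, against mean log2 signal, for the 1593 measured miRNAs (grey), the median of each decile (black line) and the 4 members. The median is near 0 up to the brightest decile, where it is 0.45. miR-4258 lies 1.25 above the median of its own decile, in which 3 of 159 miRNAs lie higher. The study's choice bears on the members' places.

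The GC content of the miRNA also moved with the ratio. Among measured miRNAs the median log2 ratio without scaling was -0.05 for 533 miRNAs of 50 to 60% GC, -0.01 for 395 of 60 to 70%, 0.19 for 156 of 70 to 80% and 0.68 for 67 of 80% or more. All 4 members belong to the last class. Without the members, 59 of its 63 miRNAs were brighter on HuH-7-M, with a median of 0.68 (quartiles 0.33 and 0.87), against 646 of 1335 (48.4%) with less GC. The 4 that were not brighter, named after their values were seen, were miR-1199-5p (-0.93), miR-6789-5p (-0.42), miR-4783-5p (-0.32) and miR-6069 (-0.11). Within the class of 67, miR-4258 had 2 miRNAs with a higher ratio, miR-663a 3, miR-3648 8 and miR-638 12. In the main setting 0 of the 67 were higher than miR-4258, 8 than miR-663a, 20 than miR-3648 and 26 than miR-638. Without scaling the GC-rich miRNAs mostly shared the members' direction, and the place of the members among them, which the study's choice bears on, depended on the scaling.

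The brightest decile had a median GC content of 73.3%, against 50% in the dimmest. GC classes were compared within the decile of miR-638, miR-663a and miR-3648 and within that of miR-4258. In the brightest decile, members left out, 38 miRNAs of 80% GC or more had a median of 0.68 with 37 brighter on HuH-7-M, and 103 with less GC had a median of 0.22 with 63 brighter. In the decile that holds miR-4258, 5 GC-rich miRNAs had a median of 0.85 with all 5 brighter, and 128 others had 0.01 with 67 brighter. In the main setting the medians of GC-rich and other miRNAs were 0.16 and 0.02 in the brightest decile, and 0.71 and 0.03 in that of miR-4258. The GC-rich class without the members had a median of 0.17 after quantile normalization (48 of 63 above 0), 0.25 after cyclic loess (53 of 63) and 0.71 in the authors' values (59 of 63). On the Spike Control scale it was -0.04, with 28 of 63 above 0, while the 1335 miRNAs with less GC had a median of -0.59. At least 2-fold higher were 9 of the 63 in the authors' values and 0 of the 63 in the main setting. The part of GC content in the members' differences was not tested.

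**Figure D4:**
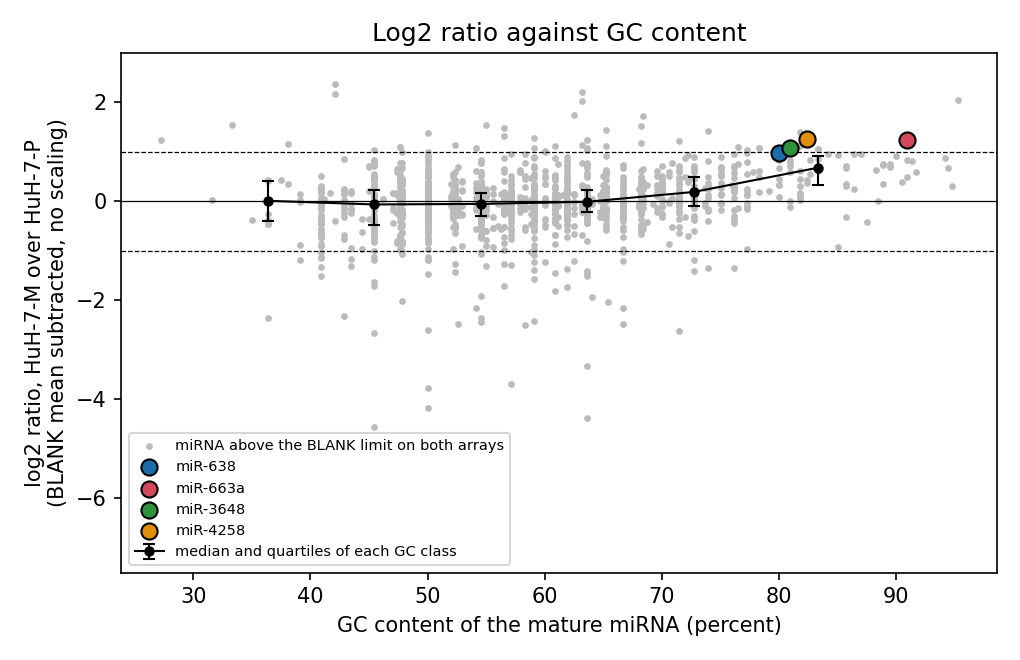
Log2 ratio of HuH-7-M over HuH-7-P, BLANK mean subtracted and no scaling, against GC content of the mature miRNA, for measured miRNAs with a RefSeq sequence (grey), the median and quartiles of each GC class (black) and the 4 members. The class medians go from -0.05 at 50 to 60% GC to 0.68 at 80% or more. All 4 members lie at 80% or more and above that median, a place that the study's choice bears on.

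The scanner output holds a second intensity for each spot, which its header names a background median but which tracks the spot. For miR-663a this column read 1344 (HuH-7-P) and 2951 (HuH-7-M), a log2 ratio of 1.13 beside 1.19 for the spot median. For miR-3648 it read 1774 and 4078 (1.20 beside 1.04). For miR-4258 it read 211 and 346 (0.71 beside 1.004). miR-638 was the exception. Its second intensity was 3405 (HuH-7-P) and 3699 (HuH-7-M), a log2 ratio of 0.12 beside 0.96. On HuH-7-M the spot median of miR-638 was 1.59 times its second intensity, against 0.89 times on HuH-7-P. Among the 81 miRNAs with a spot median over 1000 on both arrays, 9 had a larger shift of this kind, so miR-638 is not alone in it. Their median log2 ratio was 0.62 in the spot medians and 0.22 in the second column. Taken as a background for normexp, the column gave differences of 2.68 for miR-638, -0.54 for miR-3648, -0.25 for miR-663a and 0.084 for miR-4258. The sources used here do not say what the second column measures, and replicate control spots varied more in it (log2 SD 0.23) than in the spot medians (0.14).

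**Figure D5:**
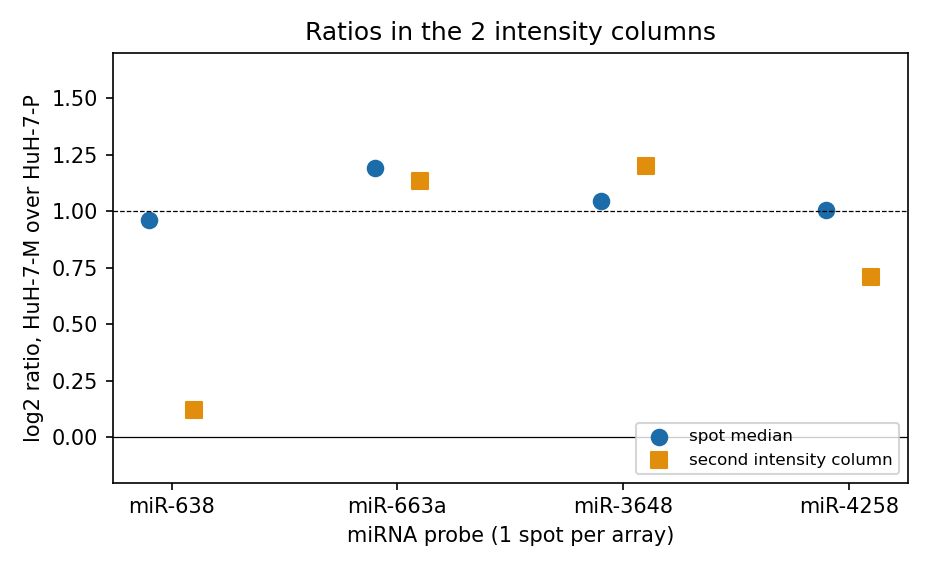
Log2 ratio of HuH-7-M over HuH-7-P for the 4 miRNAs in the spot median (circles) and in the second intensity column (squares), neither background-subtracted. The columns lie within 0.3 of each other for miR-663a, miR-3648 and miR-4258, and stand at 0.96 and 0.12 for miR-638.

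Among the array's probes with a RefSeq sequence, the seed of miR-663a is shared by miR-1908-5p and miR-6787-5p, and no other probe has the seed of miR-638, miR-3648 or miR-4258. They are shown with the seed in capitals because miRNAs with the same seed can pair with the same messages.
miR-663a: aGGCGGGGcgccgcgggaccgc
miR-1908-5p: cGGCGGGGacggcgauugguc
miR-6787-5p: uGGCGGGGguagagcuggcugc
The signals of miR-1908-5p were 5011 (HuH-7-P) and 8178 (HuH-7-M), a log2 ratio of 0.71 without scaling and a normalized difference of 0.02. miR-6787-5p had 2366 and 1867, with -0.34 and -0.94. The 3 miRNAs of this seed therefore did not stand on the same side of 0. miR-663a had the highest ratio of them, but the study chose it by this contrast, so nothing is read from that order.

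Stretches that the probes have in common were also compared, since similar sequences can bind the same spot. miR-638 and miR-3648 share a run of 8 bases that no other of the 2253 sequences holds, in capitals here.
miR-638: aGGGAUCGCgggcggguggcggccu
miR-3648: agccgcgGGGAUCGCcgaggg
miR-663a and miR-3648 also share 8 bases, and the letters CGCGGG occur in 11 of the 2253 sequences (0.488%), all 3 G-rich members among them. miR-4258 shares at most 5 bases in a row with another member. Its first 7 bases are the reverse complement of the miR-663a seed, and bases 3 to 10 are the reverse complement of bases 15 to 22 of miR-638. Whether the members' RNAs bind each other's spots was not tested.

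The longest run shared by a member with any other probe was 11 bases, between miR-638 and miR-4707-5p, in capitals here.
miR-638: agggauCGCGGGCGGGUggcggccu
miR-4707-5p: gccccggCGCGGGCGGGUucugg
The signals of miR-4707-5p were 290 (HuH-7-P) and 562 (HuH-7-M), a log2 ratio of 0.96 beside 0.98 for miR-638. miR-4787-5p, which shares 10 bases with miR-638, had 3621 and 6992 (0.95), and miR-3141, also with 10, had 343 and 414 (0.27). For miR-663a the nearest by this measure, each with 9 shared bases, were miR-1469 (1599 and 2843, 0.83), miR-6089 (5549 and 8368, 0.59) and miR-6720-5p (6.78 and 6.12, -0.15). For miR-3648 they were miR-5787 (2743 and 5224, 0.93), miR-542-5p (32.9 and 36.0, 0.13) and miR-4781-5p (10.6 and 8.11, -0.39), with 8 bases each. For miR-4258 they were miR-1181 (58.7 and 73.1, 0.32) and miR-4708-5p (14.8 and 16.5, 0.15), with 8 bases, and miR-210-5p (65.1 and 69.9, 0.10), with 7. Of these 12 partners the ratios ran from -0.39 to 0.96, and those of miR-4707-5p, miR-4787-5p and miR-5787 lay nearest to their member's. They have 87.0%, 86.4% and 85.0% GC, in the class where 59 of 63 miRNAs besides the members were brighter on HuH-7-M. miR-1469, miR-6089 and miR-1181 are also in that class, with ratios further from their member's. The part of the shared run in these ratios was not tested.

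The measured miRNAs whose signals on both arrays lay nearest to each member were found by their distance on the log2 scale, which over 2 arrays says only that brightness and ratio are alike. Nearest to miR-638 were miR-6125 (signals of 3122 and 6230, distance 0.13), miR-4488 (3290 and 5556, 0.17) and miR-5787 (0.19). Nearest to miR-663a were miR-4725-3p (1150 and 2614, 0.06), miR-4734 (1186 and 2574, 0.09) and miR-6869-5p (1373 and 2690, 0.25). miR-3648 had no neighbour as close. Its nearest were miR-8069 (2016 and 3561, 0.23), miR-4484 (1552 and 3153, 0.24) and miR-6786-5p (2014 and 3233, 0.28). Nearest to miR-4258 were miR-6131 (158 and 347, 0.09), miR-6875-5p (157 and 302, 0.28) and miR-3185 (183 and 344, 0.28). Of these neighbours, miR-6131, miR-4725-3p, miR-4484, miR-3185, miR-8069 and miR-6869-5p have under 80% GC, from 60% to 77.3%. miR-6125, miR-4488, miR-5787, miR-4734 and miR-6786-5p have 80% or more, and miR-6875-5p had no RefSeq sequence. The neighbours were picked for values like the members', so their like ratios follow from that choice. Without scaling, 36 of the 1335 miRNAs with less GC were at least 2-fold higher, and 8 of the 63 GC-rich ones besides the members.

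miR-3648 is described as coming from the spacer part of the ribosomal RNA precursor, as are miR-3687 and miR-6724-5p. Their positions in the spacer were not looked up. All 3 were measured and, without scaling, brighter on HuH-7-M, as were 50.4% of all measured miRNAs. In the main setting 0 of the 3 passed 2-fold, while 0.439% of all measured miRNAs were at least 2-fold higher. Without scaling and in the authors' values miR-3648 passed it (1.07 and 1.10). miR-3687 (0.84 and 0.87) and miR-6724-5p (0.82 and 0.85) did not. One of the 3 is a member, and miR-6724-5p, at 91.3% GC, is also in the GC-rich class, in which 63 of 67 were brighter. The signals of miR-6724-5p were 626 (HuH-7-P) and 1101 (HuH-7-M), with a normalized difference of 0.63. miR-3687 was dim, with 11.2 and 20.1 and a difference of 0.20. The median of the 3 was 0.43, that of miR-3648 itself.

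Other miRNAs described as acting on endothelium from tumour vesicles were much dimmer than miR-638, miR-663a and miR-3648, as spots. Of 19 such probes 13 were measured, of which 3 also passed the No Probe limit on each array. In the main setting 0 of the 13 passed 2-fold in either direction, beside 0.439% of all measured miRNAs higher and 1.69% lower. The 13 had a median difference of 0.12 (0.47 in the authors' values), with 9 of the 13 above 0, beside 53.9% of all measured miRNAs. miR-130a-3p had the highest value, with signals of 25.6 and 74.8 (0.73), followed by miR-92a-3p, with 46.5 and 68.8 (0.34). The lowest were miR-21-5p, with 38.2 and 7.47 (-0.60), and miR-221-3p, with 41.6 and 24.0 (-0.28). miR-103a-3p, which is described as loosening endothelial junctions from liver cancer vesicles, had 13.8 and 18.9 (0.12). miR-27b-3p was not above background on HuH-7-P (spot median 60.7) and read 255 on HuH-7-M. These dim miRNAs stood further apart without the offset. In the authors' values miR-130a-3p (1.58), miR-21-5p (-2.32) and miR-26a-5p (-1.46, named after its values were seen) passed 2-fold. There 62 measured miRNAs were at least 2-fold higher and 66 lower.

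miRNAs of endothelial cells themselves were mostly at or near background. Of 12 probes 4 were measured, of which 1 also passed the No Probe limit on each array, and all 4 were below 0, as were 717 of the 1593 measured miRNAs. Of the 4, 0 passed 2-fold in the main setting, where the offset pulls dim differences toward 0. The median of the 4 was -0.23 in the main setting and -0.69 in the authors' values. They were miR-296-5p (signals of 315.8 and 191, -0.58), miR-221-3p, miR-503-5p (20.3 and 12.3, -0.17) and miR-222-3p (10.4 and 7.23, -0.07). The defining endothelial miRNAs, miR-126-3p and miR-126-5p, were not above background on either array, with spot medians between 54.7 and 57.6. Of 5 hepatocyte miRNAs all 5 were measured but dim, with spot medians of 67.0 to 99.7 (HuH-7-P) and 68.0 to 126 (HuH-7-M). The highest differences were those of miR-122-5p (0.41), the main miRNA of hepatocytes and the brightest spot of the 5, and miR-885-5p (0.14), and the lowest those of miR-194-5p (-0.06) and miR-192-5p (-0.05). Of 3 erythroid and 3 leukocyte miRNAs 2 each were measured, with spot medians up to 90.3 and 68.1, and of 4 stromal ones 2, up to 120. The erythroid pair was miR-451a (-0.01) and miR-486-5p (-0.03), the leukocyte pair miR-223-3p (-0.01) and miR-150-5p (-0.06), and the stromal pair miR-214-3p (0.25) and miR-199a-5p (0.06). Of the erythroid, leukocyte and stromal markers, 0 of the 6 that were measured passed 2-fold in the main setting. There 0.439% of all measured miRNAs were at least 2-fold higher and 1.69% lower. The offset of 50 holds spots as dim as these markers near 0, so nothing is read from that count. In the authors' values miR-150-5p stood at -0.66 and miR-214-3p at 0.51. Of the hepatocyte miRNAs, miR-122-5p stood there at 0.79, miR-215-5p at 0.39, miR-885-5p at 0.34, miR-192-5p at -0.18 and miR-194-5p at -0.32.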

How the data were processed

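Cy5-labelled vesicle RNA was hybridised to 1 array per culture, as the labels' protocols state. The deposited scanner output lists 3200 spots per array, each with 2 intensity values per the file headers: a spot median, from which nothing had been subtracted, and a so-called background median. The sources used here do not give the scanner software. The spot medians were corrected with normexp on the BLANK spots (nec, limma 3.58.1, R 4.3.3; offset of 50), quantile normalized over the miRNA probes and put on the log2 scale; the offset pulls dim differences toward 0. Differences are HuH-7-M minus HuH-7-P; the mark of 2-fold was the size threshold. No p-value was computed, since each group has 1 array, and the number of arrays limits the precision.

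The authors' deposited table of intensity values (column medians 24.9 in HuH-7-P and 24.8 in HuH-7-M) was rebuilt from the scanner output as the trimmed BLANK-subtracted spot median scaled to a median of 25 on a linear scale; 1739 of its rows matched 1 probe each within a relative tolerance of 1e-06. It is tried as an alternative, with each value given to the probe it was computed from. For the 4 members the table's own identifiers lead to the same values.

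The members, lists and tests were chosen with earlier results of these data known. Named besides the members are the 3 probes nearest in signal, the 3 with the longest shared run and those with the same seed for each member, and of each list the 2 highest and 2 lowest differences. Sequences are RefSeq's (GRCh38.p14), matched by name for 2253 of 2565 probes (87.8%). The steps, apart from the scanner background column, were run on a simulated array with some probes raised and some lowered by a known fold. It held no trend with brightness or GC content, so it does not bear on those seen here.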

Additional observations from a re-analysis of the deposited data

How the results depend on the processing

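The study chose the 4 miRNAs by the contrast of these arrays, and each setting uses the same spots, so nothing is read from a shared direction. The direction, higher on HuH-7-M, held for all 4 miRNAs under each alternative but one, and 2-fold did not. The exception was the scanner background column, with 2.68 for miR-638, with -0.25 for miR-663a, with -0.54 for miR-3648, and with 0.084 for miR-4258, beside 20 measured miRNAs at least 2-fold higher. In the same order, BLANK subtraction without scaling gave 0.98, 1.23, 1.07 and 1.27, with 3 members, 53 measured miRNAs higher and 71 lower. The offset of 50 without scaling gave 0.97, 1.20, 1.05 and 1.04 (3 members, 19 higher). Equal medians of the measured miRNAs gave 0.97, 1.21, 1.06 and 1.05 (3 members, 20 higher), and equal 75th percentiles 1.004, 1.24, 1.09 and 1.08 (4 members, 23 higher). Cyclic loess gave 0.48, 0.88, 0.67 and 1.05. The Spike Control spots gave 0.38, 0.62, 0.47 and 0.46 (0 members, 2 higher, 73 lower). The authors' values gave 1.01, 1.27, 1.10 and 1.30 (4 members, 62 higher, 66 lower). With quantile normalization, BLANK subtraction without an offset put miR-4258 at 1.31, with 49 higher and 75 lower, and an offset of 16 gave 16 higher. The main setting has 7 higher and 27 lower; no filter gave 9 and 28, and the No Probe limit 7 and 22. The cause of these differences between settings was not tested. No paired analysis was possible because each culture had 1 array, and no array could be left out. miR-4258, at 3.39 times the BLANK limit on HuH-7-P, is the member that the background step moves most among the settings built on the BLANK spots.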

Other observations

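Among the 63 measured miRNAs of 80% GC or more besides the members, those with more G than C, as in miR-638, miR-663a and miR-3648, had a median log2 ratio without scaling of 0.68, with 45 of 46 brighter on HuH-7-M. Those with more C than G, as in miR-4258, had a median of 0.53, with 13 of 16 brighter. In the main setting the order was the other way, with medians of 0.17 and 0.24. The highest ratios of the class without scaling were those of the dim miR-1908-3p (signals of 9.52 and 39.4, 2.05) and miR-4479 (3.75 and 9.95, 1.41), named after their values were seen.

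The members lie in different blocks of the array. The other measured miRNAs of the block had a median log2 ratio without scaling of -0.01 around miR-638 (58 miRNAs) and 0.03 around miR-663a (43). It was -0.10 around miR-3648 (47 miRNAs) and 0.04 around miR-4258 (53). Among those with a signal over 100 on HuH-7-P the medians were -0.02 (16 miRNAs), 0.06 (12), 0.12 (13) and 0.30 (20), in the same order.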
